A study of Mus musculus with 12 samples.

Results

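The genes described here are 10 lineage transcription factors, found by their symbols among the 32227 genes of the count table: Gata1, Gata2, Cebpa, Cebpb, Cebpe, Runx1, Mitf, Irf8, Spi1 and Ikzf1. All 10 were present and 9 passed the filter on low counts. Cebpe did not, so it was tested in alternative fits only. Their mRNA was measured by bulk RNA sequencing of cells sorted from wild-type C57BL/6J mice, in 4 groups of 3 libraries. The groups from the bone marrow (BM) were basophil progenitors (BaPs, gated as CD200R3+, cKit-, CLEC12A-high and CD34+), pre-basophils, called immature basophils in the sample titles (CD34-, CLEC12A-high and CD9-low), and mature basophils (CD34-, CLEC12A-low and CD9-high), and mature basophils were also taken from the spleen. No group was treated and no gene was altered, and the labels give no age. Each library was a pool of cells from several animals, so errors below describe the spread between pools, and fewer cells of a type cannot be told apart from less RNA per cell.

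Basophils arise in the bone marrow from progenitors that can also give mast cells, eosinophils, neutrophils and monocytes, and these fates are set by a small group of DNA-binding proteins that often act against each other. GATA2 is needed to make both basophils and mast cells, C/EBPα moves shared progenitors towards basophils, and MITF moves them towards mast cells. GATA1 and PU.1, the product of Spi1, bind and inhibit each other in haematopoietic progenitors. RUNX1 is needed for blood stem cells and for basophil formation. IRF8 directs progenitors to monocytes and dendritic cells and also acts in B cells, and Ikaros, the product of Ikzf1, is best known from lymphocytes. C/EBPβ is induced in inflammation and C/EBPε drives the late steps of neutrophil and eosinophil granule formation.

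RefSeq promoters of GRCm38.p6, each running from 250 bases before to 50 bases after a transcript start, were searched on both strands for AGATAA (motif of GATA factors), TTNNGNAA (C/EBP), GAGGAAGT (PU.1), TGTGGT (RUNX), and for CACGTG and the longer TCATGTG (MITF and its relatives). Of the 10 members, 8 had 14 promoter entries between them, and Cebpe and Spi1 had none. The starts printed here are those of Mitf and Runx1, members called in a comparison of 2 groups below, that held at least 1 of these motifs. Entries of Gata2 and Ikzf1, which the test across the 4 groups called, are not printed. Capitals mark the motif letters.
Mitf, chr6:97806808-97807107, plus strand: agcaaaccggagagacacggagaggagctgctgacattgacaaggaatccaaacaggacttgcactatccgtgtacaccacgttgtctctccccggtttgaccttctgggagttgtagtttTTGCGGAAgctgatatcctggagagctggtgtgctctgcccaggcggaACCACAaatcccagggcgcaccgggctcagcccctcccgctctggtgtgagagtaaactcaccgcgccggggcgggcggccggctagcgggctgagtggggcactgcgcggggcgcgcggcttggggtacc
Mitf, chr6:97929567-97929866, plus strand: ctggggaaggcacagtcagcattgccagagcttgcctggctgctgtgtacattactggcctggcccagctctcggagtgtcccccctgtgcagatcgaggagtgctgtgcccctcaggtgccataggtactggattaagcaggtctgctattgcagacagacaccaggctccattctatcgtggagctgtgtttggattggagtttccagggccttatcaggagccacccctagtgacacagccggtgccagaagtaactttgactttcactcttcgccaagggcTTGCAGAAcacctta
Runx1, chr16:92826025-92826324, minus strand: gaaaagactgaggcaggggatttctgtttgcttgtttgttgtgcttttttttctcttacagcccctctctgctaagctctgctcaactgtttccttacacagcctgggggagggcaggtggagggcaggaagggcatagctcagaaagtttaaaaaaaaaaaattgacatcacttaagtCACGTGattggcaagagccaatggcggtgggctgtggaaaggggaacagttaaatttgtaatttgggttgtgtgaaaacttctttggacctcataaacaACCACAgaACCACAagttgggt
Both Mitf starts held TTNNGNAA at 1 position, and the upstream start also held TGTGGT once, on the opposite strand. The upstream Runx1 start held TGTGGT at 2 positions, on the opposite strand, and CACGTG at 1. Among all 32851 promoters of the same length, 40.7% held TTNNGNAA, 16.8% TGTGGT, 11.2% AGATAA, 7.15% CACGTG, 3.77% TCATGTG and 3.20% GAGGAAGT, so TTNNGNAA in particular was common. The only other matches were TTNNGNAA at 1 position in an entry of Gata2 and in an entry of Ikzf1. A match describes these letters and is not a bound site.

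Compared per length, as CPM (reads assigned to a gene, scaled by library size) per kilobase of annotated exon, the factors spanned a wide range of level. Gata2 was highest at 335 CPM per kb on average over the 4 groups, followed by Cebpa at 102, Spi1 at 88.6, Ikzf1 at 37.8, Runx1 at 33.6, Cebpb at 29.5 and Gata1 at 12.7. Irf8 stood at 1.42, Cebpe at 1.21 and Mitf at 0.220. BaP replicate 3 decided the order of Irf8 and Cebpe, which without it stood at 0.679 and 0.777. The distance between neighbours was uneven, wide from Gata2 to Cebpa and from Gata1 to Irf8, and some others changed places between groups. Cebpa and Spi1 changed places in BM and spleen mature basophils, at 112 ± 20.02 and 115 ± 13.9 CPM per kb in the marrow (SD, n = 3), Ikzf1 and Runx1 changed places in the spleen, at 32.2 ± 1.23 and 36.8 ± 1.90, and Cebpb was above both in mature BM basophils, at 47.1 ± 32.3 against 36.5 ± 1.27 and 29.5 ± 1.56. The lengths are the union of all annotated exons, from 1.241 kb for Cebpe to 12.025 kb for Runx1, so a gene with many unused exons is understated. Dividing by length also takes reads to come from the whole transcript, which was not checked. The order depends on it, as Runx1 at 404 CPM stood above Cebpa at 270 and Spi1 at 239 before the division. Among genes tested, the mean CPM of Gata2 lay above 99.6% of genes and that of Mitf above 1.41%.

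**Figure D1:**
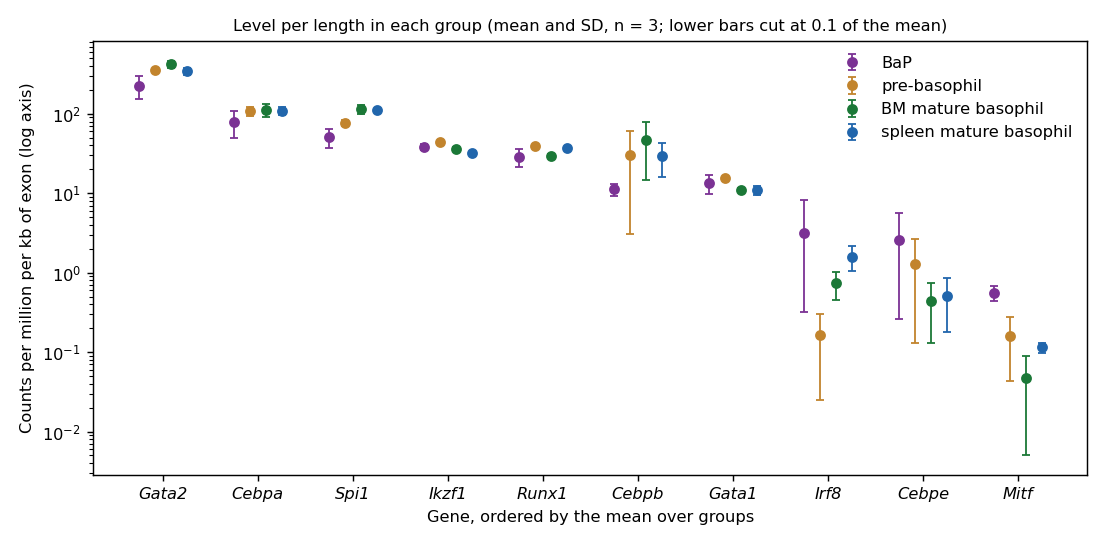
Level of each factor per length in the 4 groups, in CPM per kilobase of exon on a log axis, as mean and SD of 3 libraries, with genes ordered by their mean over groups and lower bars cut where they would cross 0. Gata2 is highest in every group, and Mitf, Irf8 and Cebpe are lowest.

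Library totals ran from 3596108 to 8151030 counts, and a count of 0 allows up to 3 counts, or 0.290 to 0.955 CPM depending on the library. BaP replicate 3 stood apart, with 26743 genes detected against 21911 to 24704 elsewhere. The 8 basophil markers (Mcpt8, Prss34, Cd200r3, Fcer1a, Ms4a2, Hdc, Il3ra and Cpa3) were present in all libraries and summed to 24740 CPM in BaP replicate 3, against 67230 and 61820 in the other BaP libraries. They summed to 60040 to 69660 CPM in pre-basophils, 11130 to 13760 in mature BM basophils and 5338 to 6094 in mature spleen basophils, so the label basophil held in every group. Prss34 alone held 42580 to 49580 CPM of the pre-basophil sums. Of the 8 markers, edgeR called 5 higher in pre-basophils than in mature BM basophils and 0 lower. Cd200r3 ran the other way, at 907 to 982 against 1088 to 1154 CPM, and Hdc measured 1130 to 1904 against 1476 to 2810 CPM. The 9 B cell markers summed to 361 CPM in BaP replicate 3 against 57.1 and 49.0 in the other BaPs, the 10 T and NK cell markers to 1010 against 445 and 340, the 9 erythroid markers to 2497 against 51.8 and 53.8, and the 9 monocyte and macrophage markers to 501 against 201 and 244. In spleen mature basophils the B cell markers summed to 468 to 780 CPM, against 56.8 to 90.2 in BM mature basophils. The 6 mast cell markers in the table summed to 65.5 to 771 CPM, mostly from Gzmb, and Mcpt4, a marker of connective tissue mast cells, had 1 count in all 12 libraries together. The 8 eosinophil markers summed to 217 CPM in BaP replicate 3 and 41.0 to 112 elsewhere, the 7 dendritic cell markers to 124 in BaP replicate 3 and 52.1 to 76.9 elsewhere, and the 5 megakaryocyte markers to 408 to 1007. The 16 neutrophil markers summed to 2568 to 4533 CPM in BaPs and pre-basophils and 299 to 492 in mature basophils. Mpo and Ctsg held 1792 and 2489 of the 4533 CPM in BaP replicate 1, and 562 and 767 of 3581 in BaP replicate 3. Ngp and S100a8 ran the other way over BaP replicates 1, 2 and 3, at 16.0, 106 and 401 CPM and 14.6, 138 and 370 CPM.

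**Figure D2:**
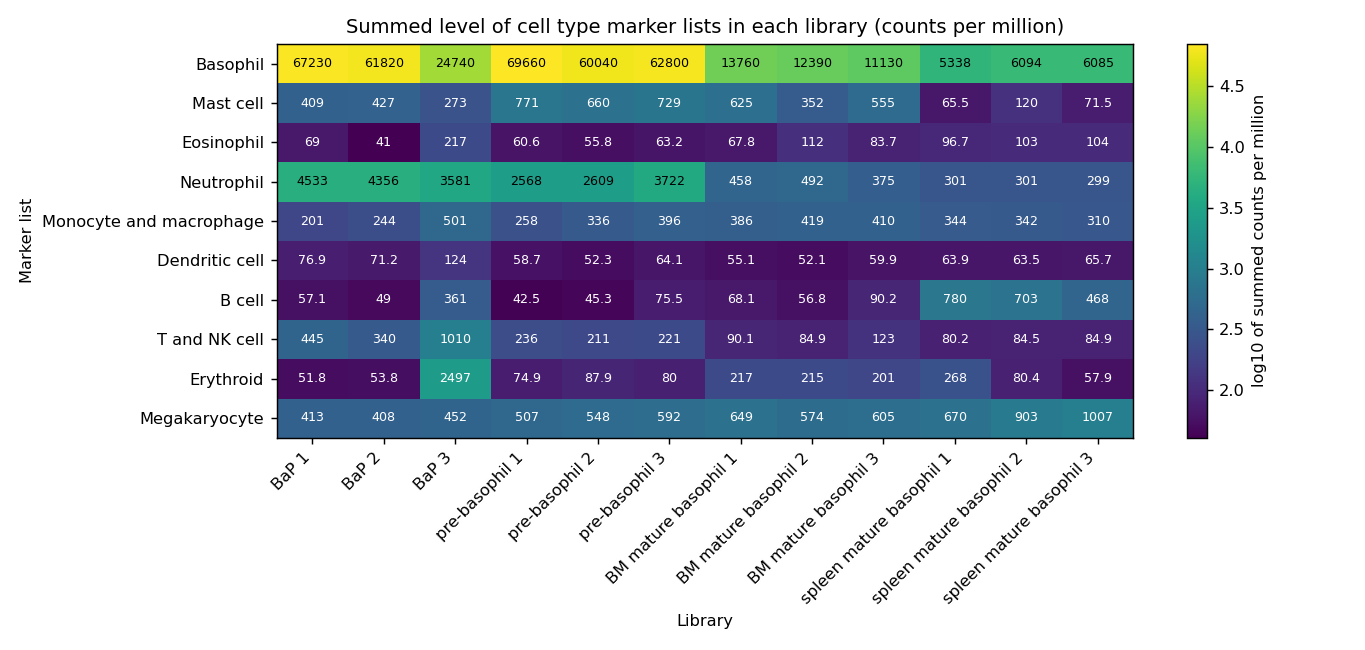
Summed CPM of each cell type marker list (vertical) in each of the 12 libraries (horizontal), coloured on a log10 scale. BaP replicate 3 has the lowest basophil sum of the BaPs and the highest erythroid sum of all libraries at 2497, and the spleen libraries have the highest B cell sums.

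Across the 4 groups, edgeR's quasi-likelihood F test with Benjamini-Hochberg adjustment called 6 of the 9 tested factors, a share to be read against 57.8% of all 15083 genes. The 6 were Spi1 (adjusted p = 0.000146), Mitf (0.000637), Gata2 (0.0107), Ikzf1 (0.0107), Runx1 (0.0307) and Irf8 (0.0307). Gata1 (0.0765), Cebpb (0.0560) and Cebpa (0.212) did not pass. Without BaP replicate 3 the count was 8, against 9690 of 14723 genes, with Gata1 at 0.00225 and Cebpb at 0.0426. Cebpa stayed outside there at 0.547. With any other single library left out the count was 4 to 7 of 9 or 10 tested. Those fits called 7587 to 8576 of 14888 to 16403 genes. Runx1 was then lost in 7 of 12 fits (0.0513 to 0.0887) and Irf8 in 5 (0.0531 to 0.0884), most of them fits without a pre-basophil or BM mature library, whereas Spi1, Mitf, Gata2 and Ikzf1 were called in all 12. Mitf reached the filter's 1.90 CPM in BaPs alone, so it was tested only because of the group where it was high. Scaling by library size alone lost Gata2 (0.0772) and gained Gata1 (0.00329), and scaling by repeated TMM without called genes lost Runx1 (0.0544) and gained Gata1 (0.0341).

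**Figure D3:**
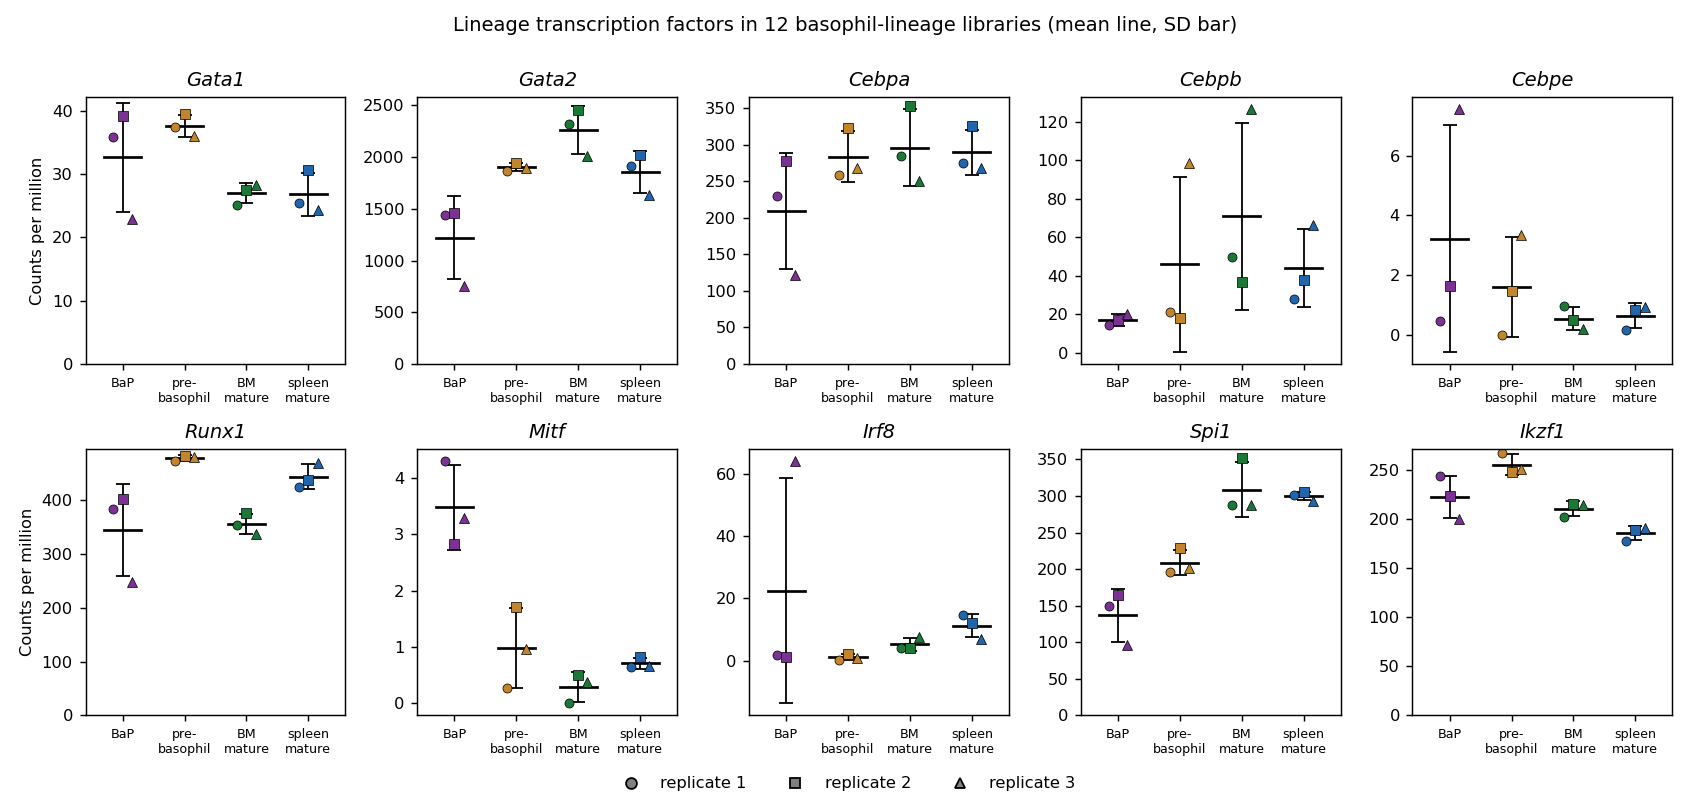
CPM (vertical, linear, a separate scale for each gene) of the 10 factors in the 4 groups, 1 point per library with the replicate number as its symbol, a line at the mean and a bar of 1 SD. Spi1 climbs from BaPs to mature basophils, Mitf is highest in BaPs, and Cebpb is highest in the replicate 3 library of each group.

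Spi1 encodes PU.1, an ETS factor that opens myeloid and B cell genes. Its level in replicates 1, 2 and 3 was 150, 165 and 96.3 CPM in BaPs, 196, 229 and 202 among pre-basophils, 287, 352 and 288 in mature BM basophils and 301, 305 and 294 in mature spleen basophils. The 3 marrow groups did not overlap, rising with each step, whereas the BM and spleen mature libraries overlapped. Spi1 was lower in pre-basophils than in BM mature basophils by a log2 fold change of -0.56 (SE 0.17, edgeR adjusted p = 0.0217), and lower in BaPs than in pre-basophils by -0.61 (SE 0.17, 0.0425). Without BaP replicate 3 the latter was -0.40 (0.0287). Scaling by library size alone, which moved the median of all genes by 0.22 and 0.23 in these comparisons, ended both calls, at -0.35 (0.118) and -0.44 (0.0910). Repeated TMM did too, at -0.48 (0.0663) and -0.60 (0.0672), and relative log scaling ended the latter at -0.61 (0.0531). The former call also fell away when replicate 1 or 3 of the pre-basophils or replicate 2 of the BM mature basophils was left out (0.0716 to 0.106), and the latter when any 1 pre-basophil library was (0.103 to 0.161), with the direction kept.

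Gata1, the factor of erythroid cells, megakaryocytes, eosinophils and mast cells, was read 340 to 552 times per group. It stood at 35.8, 39.1 and 22.9 CPM in BaPs, 37.4, 39.4 and 36.0 among pre-basophils, 25.1, 27.5 and 28.3 in mature BM basophils and 25.4, 30.7 and 24.3 in mature spleen basophils. All pre-basophil libraries lay above all mature libraries, and BaP replicates 1 and 2 did too while BaP replicate 3 was lowest of the 12. The log2 fold change of pre-basophils against BM mature basophils was 0.47 (SE 0.18, adjusted p = 0.0683), and with the replicate number as a block it was 0.47 and called (0.0443). Library size alone as the scaling gave 0.70 (0.00599).

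The ratio of Gata1 to Spi1 within a library does not depend on how libraries are scaled. In log2 units it was -2.05, -2.06 and -2.06 in BaPs, -2.38, -2.52 and -2.48 among pre-basophils, -3.49, -3.66 and -3.33 in mature BM basophils and -3.55, -3.30 and -3.58 in mature spleen basophils. BaPs lay above pre-basophils and pre-basophils above both mature groups with no overlap, and the 2 mature groups overlapped. BaP replicate 3, low in both genes, had the ratio of the other BaPs. Group means were -2.06 ± 0.0048, -2.46 ± 0.0759, -3.49 ± 0.164 and -3.47 ± 0.152 (SD, n = 3). The 6 CLEC12A-high libraries exceeded the 6 mature libraries by 1.23 on average, and the mean of the pre-basophils exceeded that of the BM mature basophils by 1.04. These are descriptions and were not tested.

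**Figure D4:**
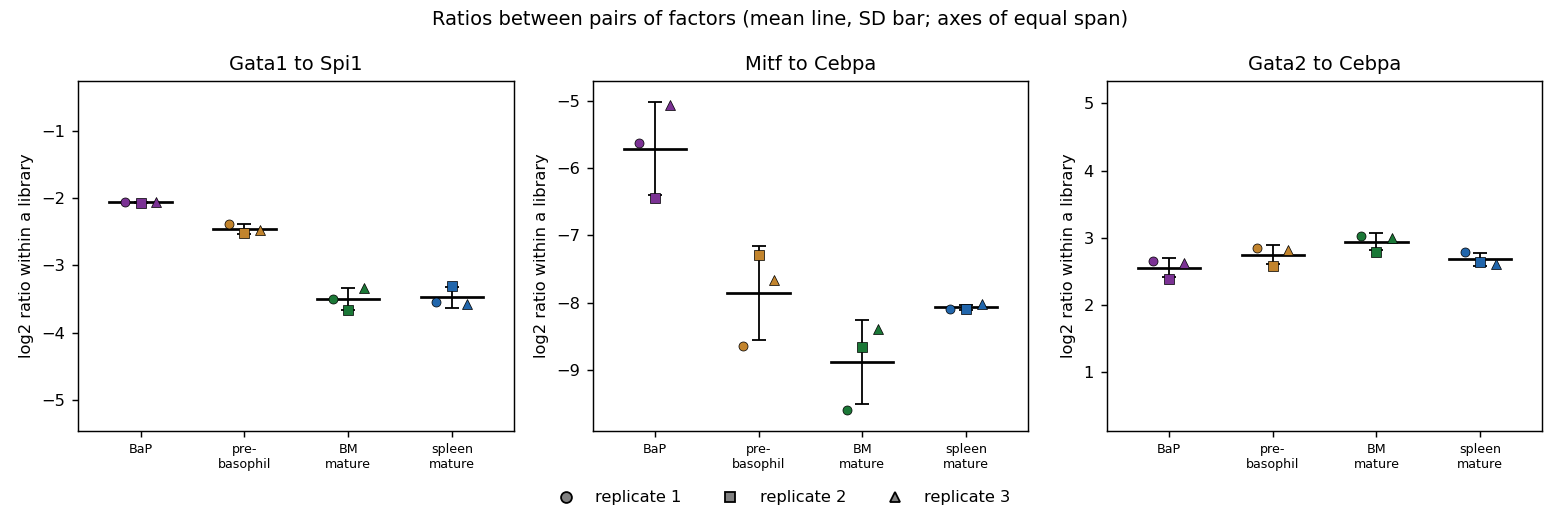
Log2 ratio of Gata1 to Spi1, Mitf to Cebpa and Gata2 to Cebpa within each library (vertical, 3 axes of equal span) in the 4 groups, with the mean as a line and 1 SD as a bar. Gata1 to Spi1 steps down from -2.06 in BaPs to -3.49 in BM mature basophils, whereas Gata2 to Cebpa lies between 2.39 and 3.03 in all libraries and steps up by 0.18 to 0.21 between marrow groups of the same replicate number.

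Gata2 was the most abundant factor. It measured 1443, 1459 and 757 CPM in BaPs, 1868, 1942 and 1890 among pre-basophils, 2324, 2455 and 2006 in mature BM basophils and 1909, 2023 and 1633 in mature spleen basophils. All BaP libraries were below all pre-basophil libraries, and these below all BM mature libraries, while the spleen libraries overlapped both. The difference of BaPs from pre-basophils was -0.64 (SE 0.20, adjusted p = 0.0661), and it was called with the replicate number as a block (-0.69, 0.0193), without BaP replicate 3 (-0.38, 0.0331) and by DESeq2 (-0.63, 0.0358). Pre-basophils against BM mature basophils gave -0.25 (SE 0.20, 0.378), or -0.34 (0.0239) with the replicate 3 libraries of all groups left out.

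Cebpa was not called by the F test across the groups, and was called with the replicate number as a block (adjusted p = 0.0384) and without the filter (0.00631). Its libraries measured 230, 277 and 122 CPM in BaPs, 259, 323 and 268 among pre-basophils, 284, 353 and 250 in mature BM basophils and 275, 325 and 268 in mature spleen basophils, with all groups overlapping. The difference of pre-basophils from BM mature basophils was -0.06 (95% interval -0.56 to 0.43) and of spleen from BM mature basophils -0.03 (-0.53 to 0.46). Changes within these bounds could not be told from no change. The log2 ratio of Gata2 to Cebpa was 2.56 ± 0.142 in BaPs, 2.75 ± 0.145 among pre-basophils, 2.94 ± 0.129 in mature BM basophils and 2.68 ± 0.103 in mature spleen basophils (SD, n = 3). Between libraries of the same number, which the marrow groups were taken to share, it was higher by 0.20, 0.19 and 0.19 in pre-basophils than in BaPs and by 0.18, 0.21 and 0.19 in mature BM basophils than in pre-basophils, each step larger than the SD within a group.

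Mitf, which drives mast cell genes such as Kit, was the least abundant member. Its counts in replicates 1, 2 and 3 were 18, 12 and 34 in BaPs, 1, 7 and 6 among pre-basophils, 0, 2 and 2 in mature BM basophils and 4, 5 and 5 in mature spleen basophils. These are 4.30, 2.83 and 3.29 CPM in BaPs and at most 1.70 CPM in any other library, and the BaP libraries overlapped with none. As no library outside the BaPs reached the filter's cutoff, Mitf could be tested only by being high there, and the test adds little to these counts. BaPs exceeded pre-basophils by a log2 fold change of 1.76 (SE 0.48, adjusted p = 0.0414), and by 1.81 (0.0361) without BaP replicate 3. Leaving out any other single library of these groups, or the replicate 3 libraries of all groups together, kept the direction and took the adjusted p to between 0.0516 and 0.157. The log2 ratio of Mitf to Cebpa was -5.71 ± 0.692 in BaPs, -7.86 ± 0.700 among pre-basophils, -8.89 ± 0.627 in mature BM basophils and -8.07 ± 0.0393 in mature spleen basophils (SD, n = 3). It rests on the prior count of 2 added to these few Mitf reads.

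Runx1 measured 383, 401 and 247 CPM in BaPs, 471, 481 and 479 among pre-basophils, 353, 374 and 337 in mature BM basophils and 423, 436 and 468 in mature spleen basophils. Pre-basophils were above every library of the other groups, and the spleen libraries above all BM mature libraries. The difference of pre-basophils from BM mature basophils was 0.43 (SE 0.15, adjusted p = 0.0490). This call was lost when any 1 of the 6 libraries was left out (0.0806 to 0.143), with DESeq2 (0.0629) and with relative log scaling (0.0764), at a log2 fold change between 0.39 and 0.47. BaPs against pre-basophils gave -0.48 (SE 0.15, 0.0718) and spleen against BM mature basophils 0.32 (SE 0.15, 0.207).

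Ikzf1 showed the smallest spread within groups of the 10 factors, with a median coefficient of variation of 3.95%. It measured 243, 224 and 200 CPM in BaPs, 267, 248 and 251 among pre-basophils, 202, 215 and 215 in mature BM basophils and 178, 189 and 191 in mature spleen basophils. The pre-basophil libraries were the highest and the spleen libraries the lowest, with no overlap. The F test over the 4 groups called it, whereas pre-basophils against BM mature basophils gave 0.28 (SE 0.10, adjusted p = 0.0595) and spleen against BM mature basophils -0.18 (SE 0.10, 0.298). Library size alone and repeated TMM as scalings called the former, at 0.50 (0.00152) and 0.37 (0.0398).

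Irf8 was low outside 1 library. Its counts were 8, 5 and 663 in BaPs, 1, 9 and 6 among pre-basophils, 13, 16 and 40 in mature BM basophils and 91, 74 and 53 in mature spleen basophils. BaP replicate 3 reached 64.2 CPM against 1.91 and 1.18 CPM in the other BaPs, and it is the library with raised B cell, T and NK cell, erythroid, monocyte, dendritic cell and eosinophil marker sums given above. Flt3, a receptor of progenitors and dendritic cells, was 12.9 CPM there against 0 and 0.471 in the other BaPs. Their part in the value was not tested. The test called Irf8 higher in BaPs than in pre-basophils by 4.35 (SE 1.22, adjusted p = 0.0475). Without this library the value was 0.42 (0.749), and with the replicate number as a block 3.87 (0.0713). Leaving out a pre-basophil library gave 3.97 to 5.04, with an adjusted p of 0.127 to 0.170.

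In the other 11 libraries Irf8 was lowest in the CLEC12A-high cells, at 0.280 to 2.19 CPM, then 4.14, 4.01 and 7.49 CPM in mature BM basophils and 14.6, 12.2 and 7.04 CPM in mature spleen basophils. The pre-basophil and BM mature libraries did not overlap, at a log2 fold change of -2.20 (SE 1.38, adjusted p = 0.267), and the F test over the 4 groups without BaP replicate 3 gave an adjusted p of 1.03e-05. Spleen against BM mature basophils gave 1.06 (SE 1.02, 0.559), and without the replicate 3 libraries of all groups 1.72 (0.0101). The B cell sum fell in the same order among the spleen libraries, at 780, 703 and 468 CPM, and its part in the Irf8 level was not tested. The defining B cell marker Pax5 reached 9.43 to 16.3 CPM there, against at most 0.751 in BM mature basophils.

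Cebpb was highest in the replicate 3 library of each group. It measured 14.1, 16.7 and 19.9 CPM in BaPs, 21.2, 18.0 and 98.5 among pre-basophils, 49.6, 36.6 and 127 in mature BM basophils and 27.8, 37.6 and 66.5 in mature spleen basophils. Replicate 3 exceeded the mean of replicates 1 and 2 by 1.29-fold in BaPs, 5.02-fold in pre-basophils, 2.94-fold in BM mature and 2.03-fold in spleen mature basophils. Pre-basophils against BM mature basophils gave -0.61 (SE 0.57, adjusted p = 0.465). Without the replicate 3 libraries of all groups the difference was -1.14 (0.000874), and without pre-basophil replicate 3 it was -1.87 (0.0184), whereas without BM mature replicate 3 it was 0.13 (0.906). BaPs against pre-basophils gave -1.46 (SE 0.60, 0.163), or -1.18 (0.0465) with the replicate number as a block. Of the Cebpb exon length, 20.7% is shared with exons of Tmem189 on the opposite strand, and whether the counting used the strand was not stated. Tmem189 stayed within 21.9 to 37.8 CPM in all libraries.

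Cebpe had 2, 7 and 78 counts in BaPs, 0, 6 and 21 among pre-basophils, 3, 2 and 1 in mature BM basophils and 1, 5 and 7 in mature spleen basophils. The highest libraries were replicate 3 of BaPs at 7.55 CPM and of pre-basophils at 3.36 CPM, and the count of 0 in pre-basophil replicate 1 allows up to 0.839 CPM. In the same pre-basophil libraries the neutrophil granule gene Ltf, a C/EBPε target, stood at 17.6, 58.2 and 150 CPM in replicates 1, 2 and 3. In BaPs it stood at 7.17, 49.3 and 126 CPM, the same order as Cebpe. Whether these values share a source was not tested. In fits whose filter kept Cebpe, the F test over the 4 groups gave an adjusted p of 2.30e-06 with no filter, and with 1 library left out it called Cebpe in 3 of 10 fits (0.0164 to 0.0466) and not in 7 (0.0790 to 0.126).

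**Figure D5:**
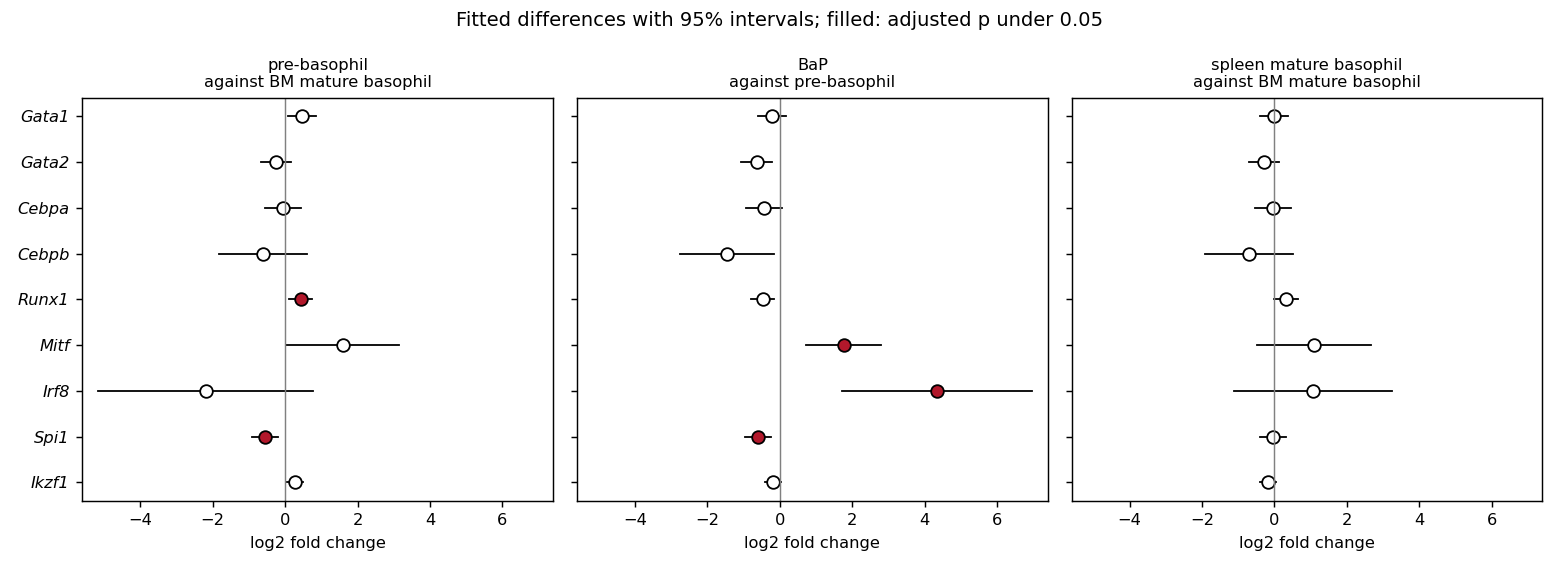
Log2 fold change (horizontal) of the 9 tested factors in 3 comparisons, with the 95% interval as a line and filled points where the adjusted p was under 0.05. Filled points are Runx1 and Spi1 in pre-basophils against BM mature basophils, Mitf, Irf8 and Spi1 in BaPs against pre-basophils, and none in spleen against BM mature basophils.

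Counted by comparison, pre-basophils differed from BM mature basophils in 1 factor called higher (Runx1, background 16.3% of genes) and 1 called lower (Spi1, background 11.0%) of 9. BaPs differed from pre-basophils in 2 called higher (Mitf and Irf8, background 2.79%) and 1 called lower (Spi1, background 4.29%). Mitf passed the filter through the BaPs alone, and the Irf8 call was lost without BaP replicate 3. The 2 are therefore not to be read as an excess over the background. Scaling by library size alone gave 3 factors higher and 0 lower in pre-basophils against BM mature basophils and 2 and 0 in BaPs against pre-basophils. Repeated TMM gave 2 and 0 in both. It called 2765 of all genes higher and 1280 lower in the former comparison and 334 and 546 in the latter. Over all genes, library size alone turned the split from 2460 higher and 1652 lower to 3703 and 784 in the former comparison, from 421 and 647 to 1290 and 330 in the latter, and from 477 and 704 to 657 and 428 in spleen against BM mature basophils. Between spleen and BM mature basophils edgeR's test called 0 of 9, against 3.16% of genes higher and 4.67% lower. None of the 9 had an unadjusted p under 0.05 there, the lowest being 0.0527 for Runx1, and DESeq2 called 0. Libraries did not overlap for 6 of 9 factors in the comparison of pre-basophils with BM mature basophils (background 47.0%), for 5 in that of BaPs with pre-basophils (25.1%) and for 3 in that of spleen with BM mature basophils (33.7%). The median log2 fold change of the factors was -0.06, -0.44 and -0.03 in these comparisons, and that of all genes tested -0.0044, 0.02 and 0.0052.

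Further regulators were taken from lists of 43 relatives and partners of these factors, 38 of them tested, and of 22 other factors of myeloid fate, 19 of them tested. Of the 57, pre-basophils had 7 called higher and 11 lower than BM mature basophils, or 12.3% and 19.3% against 16.3% and 11.0% of all genes. Myb, a factor of dividing progenitors, was higher by 2.28 (SE 0.24, adjusted p = 1.98e-05), at 79.0 ± 15.04 against 16.4 ± 4.32 CPM (SD, n = 3), and Xbp1, the factor of secretory cells, by 1.39 (SE 0.22, 0.000474). Runx2 was lower by -1.23 (SE 0.13, 1.88e-05), at 78.5 ± 3.90 against 185 ± 13.6 CPM, opposite in sign to Runx1, while Cbfb, the partner that RUNX proteins need to bind DNA, was higher by 0.72 (SE 0.15, 0.00308). Of 7 tested relatives of Irf8, 4 were lower in pre-basophils and 0 higher: Irf1, Irf2, Irf3 and Irf9, by -0.48 to -0.89. Nfil3 (-1.18) and Hhex (-1.05) were lower as well.

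BaPs differed from pre-basophils in 3 further regulators called higher and 2 lower, 5.26% and 3.51% against 2.79% and 4.29% of all genes. Myc was higher by 1.35 (SE 0.19, adjusted p = 0.00120), Myb by 0.98 (SE 0.22, 0.0173) and Hoxa9, a stem and progenitor cell factor that passed the filter through the BaPs, by 1.80 (SE 0.45, 0.0287). Nfil3 was lower by -1.13 (SE 0.23, 0.0126) and Id1 by -0.78 (SE 0.20, 0.0319). Without BaP replicate 3, 4 were higher and 8 lower of 55 tested. Spleen mature basophils had 4 called higher and 7 lower than BM mature basophils, 7.02% and 12.3% against 3.16% and 4.67% of all genes, with Myc higher by 1.66 (SE 0.19, 0.000747) and Trib1, which triggers the breakdown of C/EBPα, lower by -1.61 (SE 0.26, 0.00499), at 113 ± 14.2 against 346 ± 119 CPM. Myb and Runx2 were lower there too, by -1.34 (SE 0.27, 0.0127) and -0.75 (SE 0.13, 0.00606). Irf4, a B cell and plasma cell factor, was called higher in the spleen at 7.59 ± 3.87 against 0.250 ± 0.432 CPM, having passed the filter through the spleen libraries.

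Genes known as targets of the factors from other cells were counted by factor, and each count is to be read against the 16.3% of all genes higher and 11.0% lower in pre-basophils than in BM mature basophils. Of the 8 PU.1 targets tested, 4 were lower in pre-basophils than in BM mature basophils and 0 higher: Il7r, the IL-7 receptor chain (-1.97, SE 0.45, adjusted p = 0.00479), Itgam, the integrin CD11b (-0.995, SE 0.14, 0.000192), Btk, the kinase (-0.67, SE 0.11, 0.000589), and Tyrobp, the adaptor DAP12 (-0.60, SE 0.15, 0.00828). Of these, 3 were also lower in BaPs than in pre-basophils, Itgam by -0.91 (SE 0.14, 0.00254), Tyrobp by -0.80 (SE 0.15, 0.00675) and Btk by -0.65 (SE 0.11, 0.00450). Spi1 itself moved in the same direction as these called targets in both comparisons, which share the pre-basophil libraries. The other targets were split and not called. Cybb (2.36, adjusted p = 0.0749), Csf1r (1.11, 0.0629) and Cd68 (0.70, 0.223) were higher in pre-basophils than in BM mature basophils, and Fcgr3 (-0.17, 0.629) lower. Cybb, Csf1r and Cd68 were also higher in BaPs than in pre-basophils, by 0.34, 0.30 and 0.54, not called. Without BaP replicate 3 these differences were -1.70, 0.0171 and 0.52, again not called. In that fit edgeR called 4 of the 8 PU.1 targets lower in BaPs and 0 higher, with Il7r added at -2.01 (adjusted p = 5.14e-06). Between spleen and BM mature basophils 0 of the 8 PU.1 targets were called.

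Of the 8 GATA targets, 4 were higher in pre-basophils than in BM mature basophils and 0 lower. These were Cpa3 (1.61, SE 0.26, adjusted p = 0.000561), Ms4a2 (0.80, SE 0.23, 0.0180), Fcer1a (0.80, SE 0.25, 0.0294) and Kit, whose protein the sort excluded and which had 2.62 ± 0.914 against 0.502 ± 0.437 CPM. In BaPs against pre-basophils, Kit was higher and Hdc, the histamine-forming enzyme, Il4 and the IL-33 receptor gene Il1rl1 were lower, by -1.15 (SE 0.28, 0.0284), -0.95 (SE 0.26, 0.0395) and -0.68 (SE 0.18, 0.0394). Kit, also a target of MITF, stood at 11.5, 7.07 and 31.8 CPM in BaPs, highest in replicate 3, and at 1.60 to 3.35 CPM in pre-basophils, a difference of 2.76 (SE 0.52, 0.00744), or 1.88 (0.00471) without that library. No mature library reached the filter's cutoff for Kit. Bcl2, another MITF target, was higher in BaPs by 1.30 (SE 0.22, 0.00360) and in pre-basophils over BM mature basophils by 1.02 (SE 0.23, 0.00522). The mast cell proteases Cma1 and Tpsb2 did not exceed 5.33 and 0.839 CPM in any library.

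Of the 8 C/EBP targets, 4 neutrophil granule genes were higher in pre-basophils than in BM mature basophils and Il6ra was lower. Ltf (5.19, SE 1.03, adjusted p = 0.00207), Camp (4.73, SE 0.95, 0.00230) and Lcn2 (3.89, SE 0.35, 5.80e-06) were among them, while Cebpa itself differed by -0.06. Ltf ranged from 17.6 to 150 CPM over the pre-basophil libraries. The sum of the 16 neutrophil markers that hold these genes was higher in both CLEC12A-high groups. Mpo and Ctsg made up a large part of that sum. Cxcr2 among the markers was lower there (26.0 to 76.9 CPM against 158 to 223 in mature basophils). The part of neutrophil-lineage cells in these values was not tested. Mpo, a RUNX1 target in myeloid progenitors, was 508 ± 100 CPM in pre-basophils against 47.1 ± 21.6 in BM mature basophils (3.45, SE 0.41, 4.79e-05). Of the 7 IRF8 targets, Ly86 and Blk were called higher in spleen than in BM mature basophils, both under 10 CPM. Only the spleen group had all its libraries at the filter's cutoff for either gene, so they were tested for being high there. Of the Ikaros targets, 2 were tested, and Myc was called as given above. Over all lists, 38 targets were tested. They include the member Spi1, listed as a RUNX1 target and called lower in both comparisons between marrow groups. In pre-basophils against BM mature basophils 11 were called higher and 7 lower, 28.9% and 18.4% against 16.3% and 11.0% of all genes. BaPs had 5 and 8 against pre-basophils (13.2% and 21.1%, background 2.79% and 4.29%), and spleen had 3 and 2 against BM mature basophils (7.89% and 5.26%, background 3.16% and 4.67%).

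The genes whose log2 CPM followed a factor most closely over the 12 libraries were sought among 8431 genes of at least 10 CPM. Spi1 was followed by Gmfg, Agpat2 and Wrn (Pearson's r 0.981, 0.981 and 0.980) and Gata2 by Gm46620, the basophil receptor gene Cd200r3 and the proton pump gene Atp6v0d1 (0.972, 0.971 and 0.968). Ikzf1 was followed by Atp6v0c (0.964), Cebpb by the survival gene Mcl1 (0.934), Gata1 by H2ac20 (0.954), Cebpa by Bri3bp (0.950), Mitf by Nudt9 (0.949) and Runx1 by Brd3 (0.897). Irf8 was followed by the lymphocyte protease gene Gzma (0.944), and Cebpe by Zfp800 (0.848). The points share 4 groups and the depth and composition of each library, BaP replicate 3 included, and the values are descriptions.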

How the data were processed

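The authors captured polyadenylated RNA from sorted cells on beads, amplified the cDNA by the TAS-Seq workflow (tailing and PCR), fragmented it and sequenced it. Reads were processed with Cutadapt 3.4 and Bowtie2 2.4.2, and the deposited values are raw read counts per gene, with no normalization. The study's methods name a GRCm38 transcript reference, whereas the submitters' processing notes name GRCm39, so coordinates here are those of GENCODE M21 and RefSeq on GRCm38 and were used for gene lengths and promoters only. Strand setting, the handling of reads matching several genes and molecular identifiers are not given in the sources used here. The floors cover counting error only, and the intervals cover the spread between libraries in the fit. Neither covers errors that come from these settings.

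Counts of the 12 libraries were filtered with filterByExpr (at least 1.90 CPM in 3 libraries, here a count of 10 at the median library size), scaled by TMM (edgeR's trimmed mean method, factors 0.844 to 1.30) and fitted together in edgeR 4.0.16 (R 4.3.3) with a coefficient per group. The quasi-likelihood F test was run over 15083 genes with Benjamini-Hochberg adjustment, called under 0.05. SEs are the fold change divided by the square root of F. CPM uses TMM-scaled sizes and log2 CPM a prior count of 2. In simulated data for pre-basophils against BM mature basophils over 15083 genes, 55% of genes changed by 1 log2 unit and 96% of those changed by 2 were recovered. Only 200 genes were changed, against 4112 called in the data, and genes of low level were not among them. The rates therefore do not cover Mitf or the smaller changes called for Spi1 and Runx1.

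Alternatives were relative log scaling, library size alone, repeated TMM without called genes (after the study's own package TCC, which was not used), DESeq2 1.42.0, no filter, the replicate number as a block, each library left out, and, chosen after seeing the data, the replicate 3 libraries left out. Same-numbered libraries deviated together in the marrow (r 0.138, 0.153 and 0.223 for pre-basophils with BM mature basophils, 0.228, 0.125 and 0.262 for BaPs with pre-basophils), so the numbers were taken to pair them; the pairing comes from this check, not from the labels. Replicates differed by more than sampling noise (chi-square per degree of freedom 4.16 to 35.0). The members and lists were chosen with earlier results of these data known. All members were described. Regulator and target list genes were named where called, at 10 CPM or more in the higher group, at most 5 per list and comparison. Irf4, Kit against BM mature basophils, Hoxa9, Ly86, Blk and Il6ra were named below that level, after their values were seen. Cybb, Csf1r, Cd68 and Fcgr3 were named without a call, and Cma1 and Tpsb2 without a test.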

Additional observations from a re-analysis of the deposited data

How the results depend on the processing

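Of 351 fold changes of the factors under alternatives, 276 kept direction and side of the threshold, 26 passed it newly, 31 lost it and 18 changed sign, all 18 with neither value called. The cause was not tested for any of them. In pre-basophils against BM mature basophils the called factors numbered 2, but 1 with relative log scaling and with DESeq2, 4 without the filter, 6 without the replicate 3 libraries and 0 to 1 with a library left out. For BaPs against pre-basophils they numbered 3, but 7 without the filter and 0 to 4 with a library left out. For spleen against BM mature basophils they numbered 0, but 2 without the filter and 1 without the replicate 3 libraries. Genes called for pre-basophils against BM mature basophils numbered 4112 of 15083, but 4248 of 32227 without the filter and 4023 of 14035 without the replicate 3 libraries. There were 4096 with relative log scaling, 3828 with DESeq2 and 2831 to 3234 with a library left out. Genes called for BaPs against pre-basophils numbered 1068, but 1620 with library size alone, 2091 without the filter and 382 to 1831 with a library left out, highest without BaP replicate 3. For spleen against BM mature basophils they numbered 1181, but 1796 without the filter and 241 to 757 with a library left out. Without the replicate 3 libraries they numbered 1417.

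Signs changed near 0. Cebpa in pre-basophils against BM mature basophils went from -0.06 to 0.15 with library size alone, 0.0229 with repeated TMM and -0.17 to 0.0935 with a library left out, and Cebpb there ran from -1.87 to 0.13. Gata1 in BaPs against pre-basophils ran from -0.38 to 0.0053 with a library left out. In spleen against BM mature basophils, Gata1 was 0.12 with library size alone, 0.0028 without the filter, 0.10 without the replicate 3 libraries and -0.12 to 0.0585 with a library left out. Cebpa was 0.0896 with library size alone and -0.14 to 0.12 with a library left out, Cebpb ran from -1.12 to 0.0416, and Spi1 was 0.0821 with library size alone and ran from -0.11 to 0.0635.

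With the replicate number as a block, 3, 4 and 0 factors were called in the 3 comparisons, and 9 over the 4 groups. Of all 15083 genes it called 4483, 1399 and 1703 in the 3 comparisons, and 9081 over the 4 groups. Spleen and BM mature libraries of the same number did not deviate together (r 0.008 to 0.025), so the block there pairs a number only. Beyond the calls given beside Gata1, Gata2, Cebpb and Irf8, it changed none between marrow groups. Depth limits Mitf, Cebpe and Irf8, read as few as 0, 0 and 1 times in a library.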
